A study of Mus musculus with 12 samples.

Results

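The 10 genes described here encode glycosyltransferases that build and decorate the sugar chains of mucins and other glycoproteins in the colon: B3gnt6, Gcnt3, B4galnt2, B3gnt3, B3gnt7, Fut1, Fut2, Fut4, Fut9 and Fut8. They were chosen by name, with earlier results of these data known, from the fucosyl-, N-acetylglucosaminyl- and N-acetylgalactosaminyltransferase genes. All 10 were found among the 38924 Ensembl genes of the count tables. RNA-Seq had been carried out on the proximal colonic mucosa of 6 APC Min/+ and 6 wild type (WT) C57BL/6 mice, all female and 6 weeks old, and each mouse gave 1 library. APC Min/+ mice carry 1 truncated copy of the tumour suppressor gene Apc in every cell, so the model does not restrict the mutation to the colon or its epithelium. The sample was a short section of colon. Its RNA was not limited to the epithelium, as smooth muscle markers were counted in every library (values below). Genotypes were housed in separate cages and the mice came in several shipments, which the labels do not assign to single mice, so cage and genotype cannot be told apart. Apc itself ranged from 164 to 216 CPM (counts scaled to the library total) in APC Min/+ mice and from 154 to 239 CPM in WT mice, and counts per gene do not separate the mutant allele from the normal one.

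Mucins are secreted or membrane-bound proteins whose serine and threonine residues carry many sugar chains. Each chain starts with N-acetylgalactosamine (GalNAc), is branched into a core by enzymes that add galactose or N-acetylglucosamine (GlcNAc), is extended, and is capped by fucose, sialic acid, sulfate or GalNAc. The enzymes present in a cell set which caps its mucus shows to microbes, and in the mouse the pattern differs along the length of the intestine. Hoxa13, Hoxb13 and Hoxd13 are homeobox genes of the posterior body, and in the gut Hoxb13 is known as a gene of the distal colon and rectum.

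The total count on genes lay between 50313805 and 197914821 per mouse, and 3 counts corresponded to between 0.0152 and 0.0596 CPM. Of the 12 libraries, all labelled as proximal colon, those of the APC Min/+ mice M10_2 and M13_1 stood apart before any genotype comparison: Hoxb13 reached 378 CPM in M10_2, 275 CPM in M13_1 and 0 to 0.744 CPM in the other 10 mice. Hoxa13 was at 76.5 and 61.8 CPM in these mice against 0.921 to 2.75 CPM in the others, and Hoxd13 at 12.4 and 209 CPM against 0.0553 to 0.533 CPM. The genotype difference is therefore given below both with these mice and without them. Epithelial markers were present throughout, with a summed level of 7870 CPM in M10_2, 6856 CPM in M13_1 and 5898 to 11530 CPM in the other 10 mice. Of the 7 epithelial markers, 1 lay above the range of the others in M10_2 and M13_1 and 2 lay below it. Over all genes tested, 11.8% lay above and 12.2% below. The marker above was Cdh1, at 1199 to 1490 CPM against 297 to 871 CPM. Those below were Krt20, at 534 to 589 CPM against 985 to 2564 CPM, and Cdx2, at 20.6 to 49.9 CPM against 66.6 to 251 CPM. Markers of stratified squamous epithelium summed to between 2.58 and 4.13 CPM in all 12. Absorptive colonocyte markers summed to 4029 CPM in M10_2, 6150 CPM in M13_1 and 15990 to 35130 CPM in the others, and of the 5 markers only Car1, a carbonic anhydrase, was below the range of the others, at 966 to 2539 CPM against 14620 to 32560 CPM. Car4, another carbonic anhydrase, lay above it at 924 to 953 CPM against 241 to 582 CPM, as did 1 further marker (Ceacam20, at 177 to 199 CPM against 69.1 to 124 CPM), and the remaining 2 were within it. The part of such differences in tissue makeup in the values below was not tested, and in a bulk sample fewer cells of a type cannot be told apart from less RNA per cell.

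In WT mice the 10 genes covered a wide range of levels per length of transcript. B4galnt2 was highest at 549 RPKM (counts scaled to transcript length and library size, mean of 6 mice), followed by Gcnt3 at 161, B3gnt3 at 66.3, Fut2 at 53.5, Fut8 at 24.2, B3gnt6 at 16.6, Fut4 at 13.07, B3gnt7 at 2.83, Fut1 at 0.438 and Fut9 at 0.0231 RPKM. The ranges of B3gnt3 and Fut2 overlapped, as did those of Fut8 and B3gnt6 and of B3gnt6 and Fut4, so the levels of these neighbours did not differ beyond their spread between mice. Within a mouse, Fut8 was nevertheless above B3gnt6 in 6 of 6 WT mice, B3gnt3 above Fut2 in 5 of 6 and B3gnt6 above Fut4 in 3 of 6. The ranges of the other neighbours did not overlap. The order differed in M10_2 and M13_1, where B3gnt7 was the highest of the 10 genes at 359 and 287 RPKM, and B4galnt2 stood at 103 and 47.8 RPKM. In these mice Fut4 was at 49.8 and 54.6 RPKM, Fut9 at 3.67 and 8.31 RPKM and B3gnt6 at 0.969 and 0.773 RPKM.

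**Figure D1:**
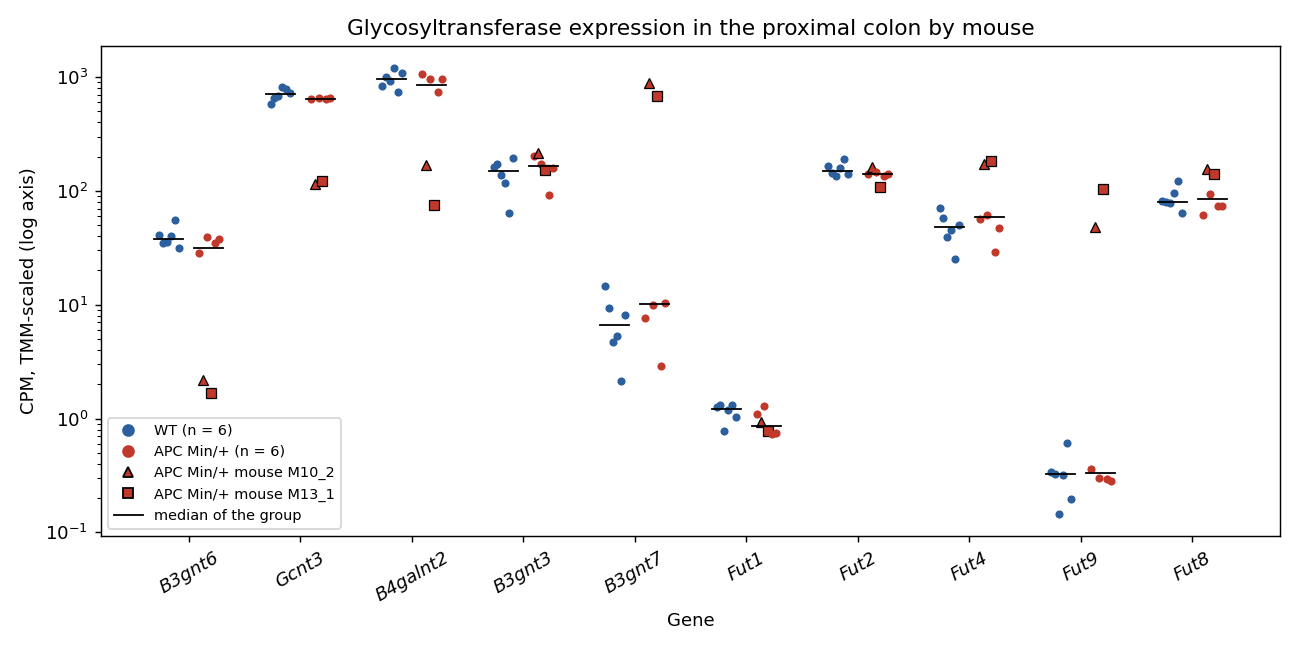
Level of each of the 10 genes in each mouse, as TMM-scaled CPM on a log axis, with WT mice in blue, APC Min/+ mice in red and the median of each genotype as a line. The triangle (M10_2) and the square (M13_1) lie above every other mouse for B3gnt7, Fut4, Fut9 and Fut8 and below every other mouse for B3gnt6, Gcnt3 and B4galnt2.

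Reference promoters (250 bases before and 50 after the start, GRCm38.p6, RefSeq) were at hand for 6 of the 10 genes, namely Fut1, Fut4, Fut8, B3gnt3, B3gnt7 and B4galnt2. Those of 3 genes whose levels in M10_2 and M13_1 lay outside the range of the other mice are given 5′ to 3′ on the strand of the gene, B3gnt7 (chr1:86302971-86303270, plus strand) and Fut4 (chr9:14752073-14752372, minus strand) as genes that were higher there and B4galnt2 (chr11:95914822-95915121, minus strand) as one that was lower.
B3gnt7: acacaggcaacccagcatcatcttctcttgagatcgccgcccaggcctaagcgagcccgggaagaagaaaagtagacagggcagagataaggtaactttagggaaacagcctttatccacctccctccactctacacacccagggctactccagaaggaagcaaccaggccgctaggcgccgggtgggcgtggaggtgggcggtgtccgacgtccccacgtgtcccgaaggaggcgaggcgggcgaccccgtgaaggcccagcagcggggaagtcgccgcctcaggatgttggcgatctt
Fut4: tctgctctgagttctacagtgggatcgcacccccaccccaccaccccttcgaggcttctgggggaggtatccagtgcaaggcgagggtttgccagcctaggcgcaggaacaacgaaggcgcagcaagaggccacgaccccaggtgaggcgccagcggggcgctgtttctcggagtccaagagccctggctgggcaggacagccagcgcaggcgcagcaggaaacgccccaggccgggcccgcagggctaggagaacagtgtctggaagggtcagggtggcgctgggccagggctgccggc
B4galnt2: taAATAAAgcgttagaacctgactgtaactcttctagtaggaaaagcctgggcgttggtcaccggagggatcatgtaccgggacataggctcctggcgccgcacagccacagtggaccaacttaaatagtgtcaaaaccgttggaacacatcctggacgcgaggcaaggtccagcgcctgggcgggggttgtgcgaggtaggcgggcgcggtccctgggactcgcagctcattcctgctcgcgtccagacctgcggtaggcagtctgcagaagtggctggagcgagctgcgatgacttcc
Capitals mark AATAAA, letters found in preferred sites of posterior HOX and CDX proteins. Both strands were searched for AATAAA, for TCGTAAA (also of posterior HOX and CDX proteins), TTTATGG (of CDX proteins), ATCAAAG (of TCF and LEF proteins) and CAAAGTCCA (of HNF4 proteins), and no match overlapped another. B4galnt2 held AATAAA 248 bases before its start, while B3gnt7, Fut4 and Fut1 held none of the 5. Of 32851 mouse promoters of the same length, 19.6% held AATAAA, 0.597% TCGTAAA, 2.75% TTTATGG, 3.73% ATCAAAG and 0.475% CAAAGTCCA. Of the promoters not printed, that of B3gnt3 held CAAAGTCCA 154 bases before its start, and at 2 of 4 starts of Fut8 there was a match, to AATAAA at one and to ATCAAAG at the other. A match describes the letters of these windows, and binding was not measured.

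B3gnt6, Gcnt3 and B4galnt2 were each lower in M10_2 and M13_1 than in any other mouse. B3gnt6 (ENSMUSG00000074004.2, chromosome 7, 98192417 to 98199481), the core 3 synthase of the colon, stood at 2.19 CPM (M10_2) and 1.67 CPM (M13_1). In the other 4 APC Min/+ mice it was at 28.3, 35.2, 37.4 and 39.7 CPM, and the 6 WT mice ranged from 31.7 to 55.9 CPM with a median of 37.6 CPM. The lowest of those 10 mice was 12.9 times the higher of M10_2 and M13_1, and the remaining APC Min/+ mice lay within or close to the WT range.

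Gcnt3 (ENSMUSG00000032226.5, chromosome 9, 70031496 to 70038088), which adds the GlcNAc branch of core 2 and core 4 chains, showed the same split. M10_2 had 114 CPM and M13_1 had 122 CPM, the 4 remaining APC Min/+ mice had 637 to 656 CPM, and WT mice had 575 to 814 CPM with a median of 704 CPM. B4galnt2 (ENSMUSG00000013418.8, chromosome 11, 95865943 to 95914891), which caps chains with GalNAc to form the Sda or Cad antigen, reached 169 CPM (M10_2) and 74.95 CPM (M13_1). The 4 remaining APC Min/+ mice ranged from 740 to 1071 CPM and the WT mice from 744 to 1196 CPM, with a WT median of 961 CPM. For Gcnt3 and B4galnt2 the lowest of the other 10 mice was 4.70 and 4.39 times the higher of the pair. Gm11534, an antisense gene that overlaps B4galnt2, was counted at 0.0442 to 0.207 CPM in M10_2 and M13_1 and at 0.449 to 0.762 CPM in the others, and without a stated strand setting its reads cannot be told apart from those of B4galnt2.

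Both extension enzymes add GlcNAc to galactose, and they differed from each other. B3gnt7 (ENSMUSG00000079445.2, chromosome 1, 86302832 to 86307305), which lengthens N-acetyllactosamine and keratan sulfate chains, reached 886 CPM (M10_2) and 678 CPM (M13_1). In the other 4 APC Min/+ mice it was at 2.90, 7.62, 9.86 and 10.4 CPM, and in WT mice it ranged from 2.12 to 14.5 CPM with a median of 6.69 CPM. The lower of M10_2 and M13_1 was 46.9 times the highest of the other mice, which among themselves varied by a coefficient of variation of 50.6%, the widest of the 10 genes. An antisense gene, Gm28626, overlaps B3gnt7 in the annotation but is not among the counted genes, so its own level is not known. B3gnt3 (ENSMUSG00000031803.7, chromosome 8, 71690756 to 71701789), which extends core 1 chains, did not separate these mice: M10_2 had 214 CPM, M13_1 had 153 CPM, the remaining APC Min/+ mice had 92.8 to 203 CPM and WT mice had 63.7 to 196 CPM.

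Among the fucosyltransferases, those that make the H antigen by adding fucose to terminal galactose did not set M10_2 and M13_1 apart. Fut2 (ENSMUSG00000055978.4, chromosome 7, 45648591 to 45666394), the secretor enzyme of epithelia, stood at 161 CPM (M10_2) and 109 CPM (M13_1). Its range was 134 to 146 CPM over the 4 remaining APC Min/+ mice and 136 to 191 CPM over the WT mice. Fut1 (ENSMUSG00000008461.5, chromosome 7, 45617289 to 45621059) was at 0.736 to 1.28 CPM in APC Min/+ mice, M10_2 and M13_1 included, and at 0.772 to 1.31 CPM in WT mice. Neither gene left the range of the other 10 mice in both M10_2 and M13_1.

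The enzymes that make Lewis x type structures, Fut4 and Fut9, were both highest in M10_2 and M13_1. Fut9 (ENSMUSG00000055373.8, chromosome 4, 25609332 to 25800244) had 9571 counts in M10_2 and 9475 in M13_1, or 48.3 and 104.6 CPM, against 14 to 70 counts in each of the other 10 mice, or 0.146 to 0.608 CPM. The lower of the pair was 79.5 times the highest of the others, and the other 4 APC Min/+ mice, at 0.281 to 0.359 CPM, lay inside the WT range. Fut4 (ENSMUSG00000049307.5, chromosome 9, 14748320 to 14752393) reached 174 CPM (M10_2) and 182 CPM (M13_1), against 29.1 to 61.6 CPM in the 4 remaining APC Min/+ mice and 25.2 to 71.3 CPM in WT mice, a factor of 2.44 between the lower of the pair and the highest of the rest. Fut8 (ENSMUSG00000021065.9, chromosome 12, 77238125 to 77476338), which acts on the core of N-linked chains and not on mucin O-glycans, reached 156 CPM (M10_2) and 141 CPM (M13_1), against 61.8 to 122 CPM in the other 10 mice, so that the factor was 1.15. Small nuclear RNA genes overlap Fut8. A processed pseudogene, Gm45756, overlaps B3gnt3 but is not among the counted genes. Reads shared with these overlapping genes could not be separated.

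In all, 4 of the 10 genes were higher in M10_2 and M13_1 than in every other mouse and 3 were lower than in every other mouse. Of the 20311 genes tested, 11.8% were higher and 12.2% lower in the same sense. These mice were singled out by their Hoxb13 level and share a genotype, so no test was made between them and the rest. The 10 genes were chosen with earlier results of these data known, so their counts beside all genes do not describe an unselected set.

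The other 10 mice also varied, and some of the genes, though not all, shared the mice in which they were lowest. M17_1 (WT) and M2_A (APC Min/+) had the lowest levels of Fut4 (25.2 and 29.1 CPM), B3gnt3 (63.7 and 92.8 CPM), B3gnt7 (2.12 and 2.90 CPM) and B4galnt2 (744 and 740 CPM) among these 10. M17_1 had at the same time the highest levels of Fut1, Fut2, Fut8, Fut9 and B3gnt6 among them, although Fut1 was nearly as high in M19_1 (1.308 and 1.307 CPM). M2_A, by contrast, had the lowest levels of Fut1 and Fut2 (0.736 and 134 CPM). For Gcnt3 M2_A was second lowest and M17_1 second highest. These mice differ in genotype, were picked out after their values were seen, and their order was not tested.

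The first comparison asked whether the genotype changed expression before polyps form. Under the criteria of FDR below 0.05 and at least a 2-fold change, edgeR's quasi-likelihood test called none of the 10 genes nor any other gene (0.0% of the 20311 tested), with a lowest FDR of 0.908. At an unadjusted p under 0.05 in that test there were 3 of the 10 genes, Fut9, B3gnt7 and Fut4, against 5.27% of all genes. The log2 fold change of APC Min/+ over WT was 6.30 for Fut9 (approximate standard error 1.65), 5.18 for B3gnt7 (approximate standard error 1.42) and 0.93 for Fut4 (approximate standard error 0.43). Fut9 was also the 1 gene of the 10 called by edgeR's exact test (FDR = 0.0475, with 0.0591% of all genes called) and its likelihood ratio test (FDR = 0.0275, with 0.0739%). DESeq2 called Fut9 (FDR = 0.0026) and B3gnt7 (FDR = 0.017), where it called 0.133% of all genes. Both are among the genes the study listed as differential in these mice, so they are not independent evidence of a direction. Of the 10 log2 fold changes 5 were positive and 5 negative, their median was 0.018, beside -0.0077 over all genes, and the median of their absolute size was 0.56, beside 0.15 over all genes. As the 10 genes were chosen with earlier results of these data known, these values beside all genes do not describe an unselected set.

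Without M10_2 and M13_1 the differences between genotypes were small. The absolute log2 fold changes of the 10 genes then had a median of 0.14 and a maximum of 0.24, reached by Fut1, and 0 of the 10 had an unadjusted p under 0.05 in edgeR's quasi-likelihood test, against 1.59% of the 19978 genes tested. The log2 fold change of Fut9 became -0.061 (standard error 0.35), that of B3gnt7 0.070 (standard error 0.47) and that of Fut4 0.012 (standard error 0.27). Those of B3gnt6, Gcnt3 and B4galnt2 went from -0.73, -0.58 and -0.54 to -0.18, -0.12 and -0.049. The signs of Fut9 and Fut8 turned, and the other 8 genes kept theirs. Without these mice 0 genes of the 10, and 0 of the 19978, were called by edgeR's exact test, its likelihood ratio test or DESeq2, in which 339, 379 and 429 genes had an unadjusted p under 0.05.

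**Figure D2:**
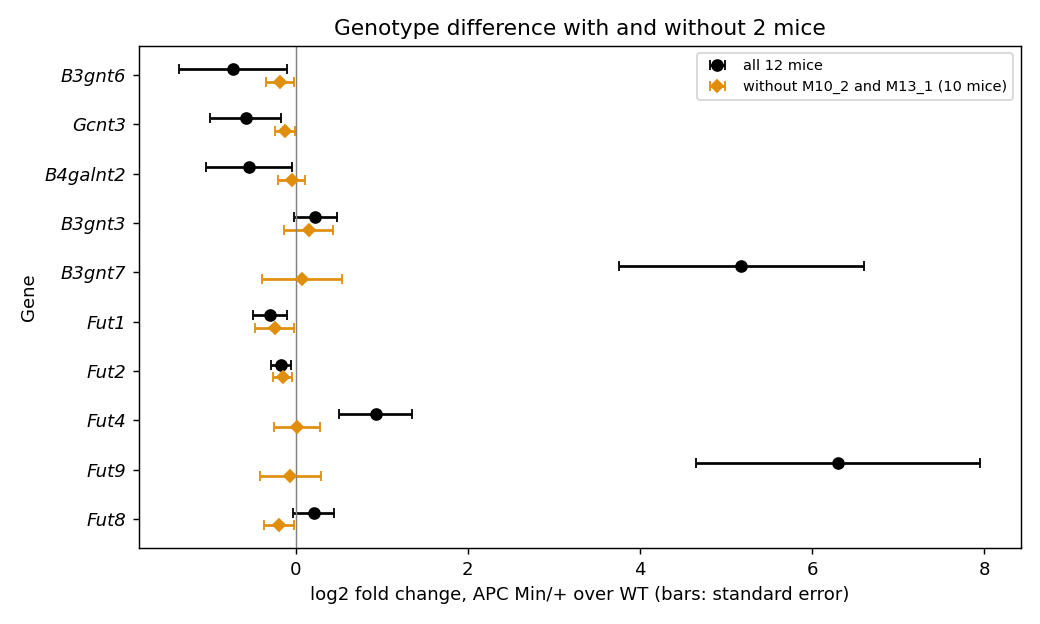
Log2 fold change of APC Min/+ over WT with its approximate standard error for each gene, from all 12 mice (black circles) and without M10_2 and M13_1 (orange diamonds). Fut9 and B3gnt7 move from 6.30 and 5.18 to values near 0, and all 10 diamonds lie within 0.242 of 0.

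A test that does not assume a distribution gave no call either. In a two-sided exact permutation test of the difference in mean log2 CPM, the lowest p among the 10 genes was 0.0649 for Gcnt3, followed by 0.0844 for B3gnt6, and 0 of the 10 were under 0.05, against 3.95% of all genes. After Benjamini-Hochberg adjustment over all genes these permutation p-values were 0.893 for both. Without M10_2 and M13_1 the lowest exact permutation p among the 10 genes was 0.162, for Fut2. The smallest p that 6 against 6 mice allow is 0.0022, and 0.0048 for 4 against 6. In all 12 mice the exact permutation p was 0.117 for Hoxb13, 0.195 for Hoxa13, 0.013 for Hoxd13 and 0.223 for Fut9. A difference carried by M10_2 and M13_1 alone can thus escape this test. For none of the 10 genes did the ranges of the genotypes separate, against 0.118% of all genes. With 1 mouse left out at a time, up to 3 of the 10 genes came under 0.05 in the same permutation test: B3gnt6, B3gnt7 and Gcnt3 without M2_A, Fut1, B3gnt6 and Gcnt3 without M18_2b, Gcnt3 with B3gnt6 without M20_1, Gcnt3 with B4galnt2 without M8_2, and Fut1 without M16_1.

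The second question was how the 10 genes follow regional identity, read from Hoxb13. Because Hoxb13 divides the 12 mice into separate clusters of 2 and 10, no correlation over all 12 was computed, and relations were examined within the 10 mice with Hoxb13 under 1 CPM. Of these, 4 had no Hoxb13 count, M20_1 and M17_2 had 2 counts each, and the highest was M8_2 at 0.744 CPM (145 counts). M19_1, M18_2a and M18_2b had 40, 25 and 24 counts. The order of these mice by Hoxb13 thus rests on low counts, and whether it follows regional identity was not tested. Fut4 alone of the 10 genes had a Spearman permutation p under 0.05, with rho = 0.68 (permutation p = 0.036, and 0.172 after adjustment over all genes), while Pearson's r was 0.54 (permutation p = 0.109). Without M8_2 and M19_1, the mice farthest from the median Hoxb13 level, rho for Fut4 was 0.63 and r was 0.48, close to the values with them, and over those 8 mice 0 of the 10 genes had an exact permutation p under 0.05. Over all genes, 25.2% had a Spearman permutation p under 0.05 with Hoxb13 in these mice, a larger share than 1 of 10. B3gnt7 and Fut9, the genes with the widest gap between M10_2 or M13_1 and the rest, had rho of 0.47 and 0.48 (permutation p = 0.171 and 0.164). Both rho and r were computed for each of the 10 genes.

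**Figure D3:**
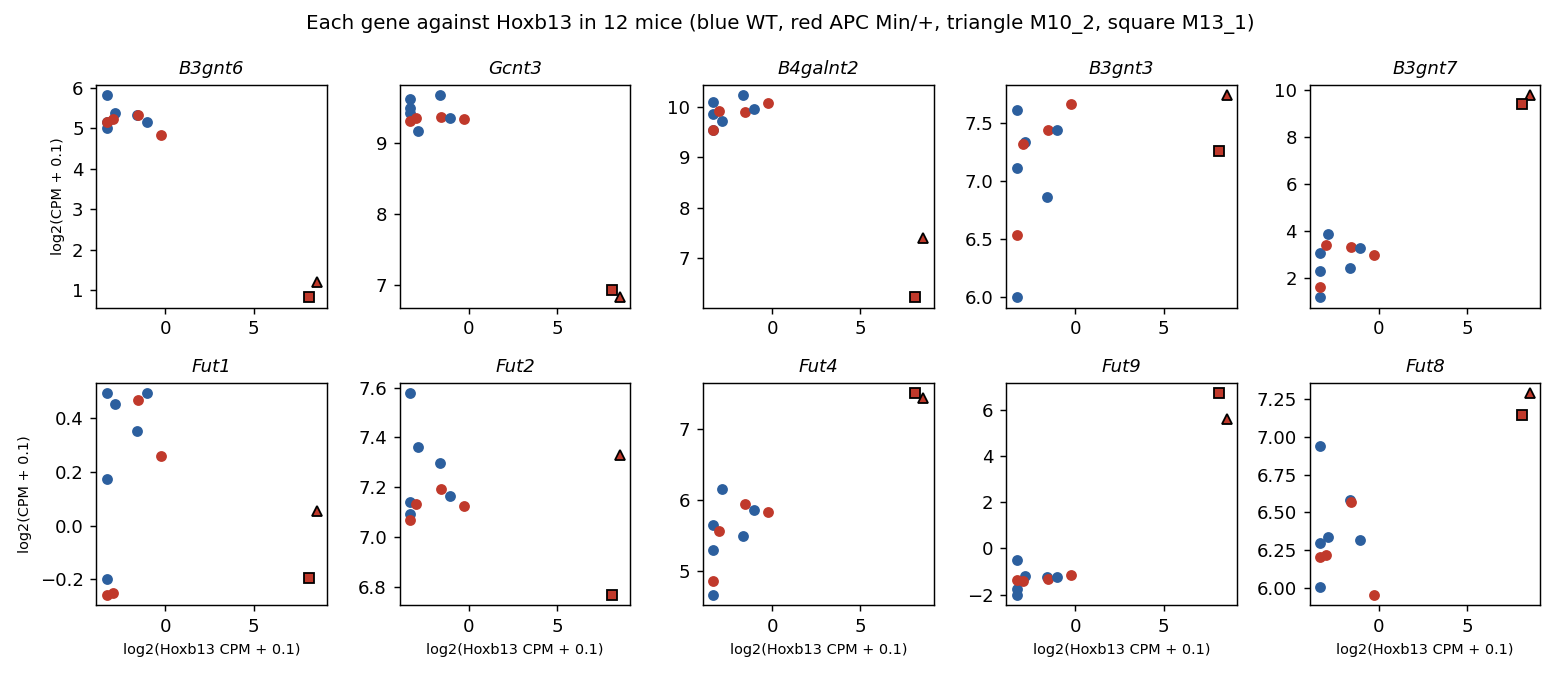
Each gene against Hoxb13 in 12 mice, both as log2(CPM + 0.1), with WT in blue, APC Min/+ in red, M10_2 as a triangle and M13_1 as a square. The 2 mice with Hoxb13 at 275 CPM or more stand at the right of each panel, and the other 10, at 0.744 CPM or less, form a cluster at the left.

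The remaining steps of mucin glycosylation were read from a list of 102 other genes, of which 91 had enough counts to be tested. None passed the FDR and fold criteria in edgeR's quasi-likelihood test, and 0 passed in edgeR's exact test, its likelihood ratio test or DESeq2. At an unadjusted p under 0.05, 9 were higher and 1 was lower in APC Min/+ mice (10 of the 91, where the share over all genes was 5.27%), and without M10_2 and M13_1 there was 1, St8sia2, of 89 tested (1.59% over all genes). In M10_2 and M13_1, 24 of the 91 (26.4%) lay above and 16 (17.6%) below every other mouse, beside the shares of all genes given above. Of the 24, St8sia5 and St6galnac1 had enough counts to be tested only because of this pair, so the filter bears on their place above. Among genes also tested without the pair, 22 of 89 lay above, beside 11.6% of all such genes. The list of 102 was likewise chosen with earlier results of these data known.

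Of 17 enzymes that start chains or make core 1, 1 lay above the range of the other mice in M10_2 and M13_1 and 4 lay below. Galnt3, which adds the first GalNAc, was the single gene of the list that was lower at an unadjusted p under 0.05 in edgeR's quasi-likelihood test (log2 fold change -0.29), and without M10_2 and M13_1 the value was -0.14. It stood at 52.1 to 52.4 CPM in the pair and 64.8 to 94.6 CPM in the others, and Galnt4, of the same family, at 196 to 209 CPM against 224 to 333 CPM. Galnt14, also of that family, was the gene above, at 0.254 to 0.348 CPM against 0.0245 to 0.204 CPM. C1galt1c1, the chaperone of the core 1 synthase, was at 47.8 to 48.7 CPM against 65.0 to 166 CPM. Of 8 genes for core 2, core 3 and GlcNAc extension, 3 lay above and 1 below. B3gnt5, which starts lacto-series glycolipids, was at 136 to 161 CPM against 5.98 to 9.80 CPM. Gcnt1, another core 2 enzyme, was at 109 to 144 CPM against 10.5 to 70.7 CPM, whereas Gcnt4, likewise a core 2 enzyme, was at 2.68 to 3.29 CPM against 12.3 to 30.2 CPM, so the 3 core 2 enzymes Gcnt1, Gcnt3 and Gcnt4 did not move together.

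Of 16 genes for galactose and GalNAc extension, 5 lay above and 2 below. B4galnt3, which places GalNAc on GlcNAc, was at 115 to 131 CPM in the pair against 5.35 to 20.7 CPM. B4galnt1, the GM2 and GD2 ganglioside synthase, was at 11.6 to 21.4 CPM against 81.7 to 198 CPM, and B3galt5 at 531 to 746 CPM against 158 to 342 CPM. B4galt4, a galactosyltransferase, overlapped between them (44.0 to 50.3 CPM and 49.6 to 70.4 CPM). B4galnt4 was the other gene below, at 2.24 to 2.49 CPM against 2.91 to 6.955 CPM. The GalNAc transferases therefore differed in direction, with B4galnt3 higher in the pair and B4galnt1, B4galnt2 and B4galnt4 lower. Of 12 other fucosyltransferases and genes of GDP-fucose supply, 2 lay above and 3 below, where the shares over all genes were 11.8% and 12.2%. Those below were Gmds and Tsta3, which make GDP-fucose from GDP-mannose, and Fpgt, which salvages fucose. Gmds was at 184 to 189 CPM against 241 to 325 CPM, Tsta3 at 73.2 to 87.4 CPM against 91.4 to 140.0 CPM and Fpgt at 39.2 to 40.1 CPM against 59.8 to 102 CPM. Pofut1, which places fucose on EGF-like repeats of proteins such as Notch, lay above, at 56.6 to 57.4 CPM against 33.0 to 47.7 CPM.

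Of 20 sialyltransferases, 10 lay above the range and 3 below, or 8 of 18 above without St8sia5 and St6galnac1. St8sia5, a ganglioside sialyltransferase, was at 7.81 to 7.83 CPM in M10_2 and M13_1 and at 0 to 0.0513 CPM in the others. St3gal4 was at 299 to 352 CPM against 27.7 to 245 CPM, St6galnac6 at 536 to 736 CPM against 293 to 382 CPM and St6galnac4 at 36.2 to 54.5 CPM against 5.88 to 12.1 CPM. Among 10 sulfotransferases, 2 lay above and 0 below. Those above were Chst5, at 0.353 to 0.409 CPM against 0.0490 to 0.336 CPM, and Gal3st2b, at 7.94 to 10.7 CPM against 1.26 to 3.53 CPM. Chst4, at 41.2 to 68.3 CPM, overlapped the others at 30.7 to 51.0 CPM, and Gal3st2c, at 38.0 to 39.0 CPM, lay within their range of 3.98 to 284 CPM. Gal3st2b and Gal3st2c are close copies of each other, so the division of reads between them is uncertain. Of 8 mucins, Muc1, a membrane-bound mucin, was at 23.3 to 27.5 CPM against 0.747 to 1.57 CPM, while Muc2, the main secreted gel-forming mucin of the colon, was at 1268 to 1713 CPM against 2830 to 10530 CPM and Muc3a at 61.2 to 82.7 CPM against 181 to 342 CPM. Muc3 lay within the range of the others, at 3570 to 3709 CPM against 2002 to 3806 CPM. B3gnt5, St8sia5 and Muc1 are again on the study's own list of differential genes.

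Muc2 and the other goblet cell markers did not move as one. As a list, these markers summed to 20810 CPM in M10_2, 11940 CPM in M13_1 and 8707 to 18740 CPM in the other 10 mice, and of 7 markers 3 lay above the range in the pair and 2 below. Tff3, a peptide that goblet cells secrete with mucin, was at 564 to 814 CPM against 356 to 493.2 CPM. The other lists differed in direction, where 11.8% of all genes tested lay above the range in the pair and 12.2% below it. Of 6 smooth muscle markers, 2 lay above the range in the pair and 0 below. Of 4 adipocyte, 6 small intestinal and 6 leukocyte markers, 4, 2 and 3 lay below it, and 0 above. Smooth muscle markers summed to 5673 and 6172 CPM against 4391 to 6959 CPM, adipocyte markers to 3.46 and 8.22 CPM against 31.3 to 227 CPM, and small intestinal markers to 9.95 and 16.6 CPM against 31.6 to 329 CPM. Skeletal muscle markers summed to 21.7 and 17.6 CPM against 26.7 to 39.6 CPM. Ckm was lower in the pair (9.70 to 10.1 CPM against 19.3 to 34.3 CPM) and Myh2 higher (1.57 to 2.09 CPM against 0.0384 to 0.308 CPM). Of the 5 such markers with enough counts to be tested, 1 lay above and 2 below. Leukocyte markers summed to 363 and 207 CPM against 373 to 2182 CPM, mostly Igha and Jchain of plasma cells, while Ptprc, present on all leukocytes, was within the range (25.1 to 32.2 CPM against 19.4 to 38.7 CPM). Their part in the levels of the 10 genes was not tested.

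**Figure D4:**
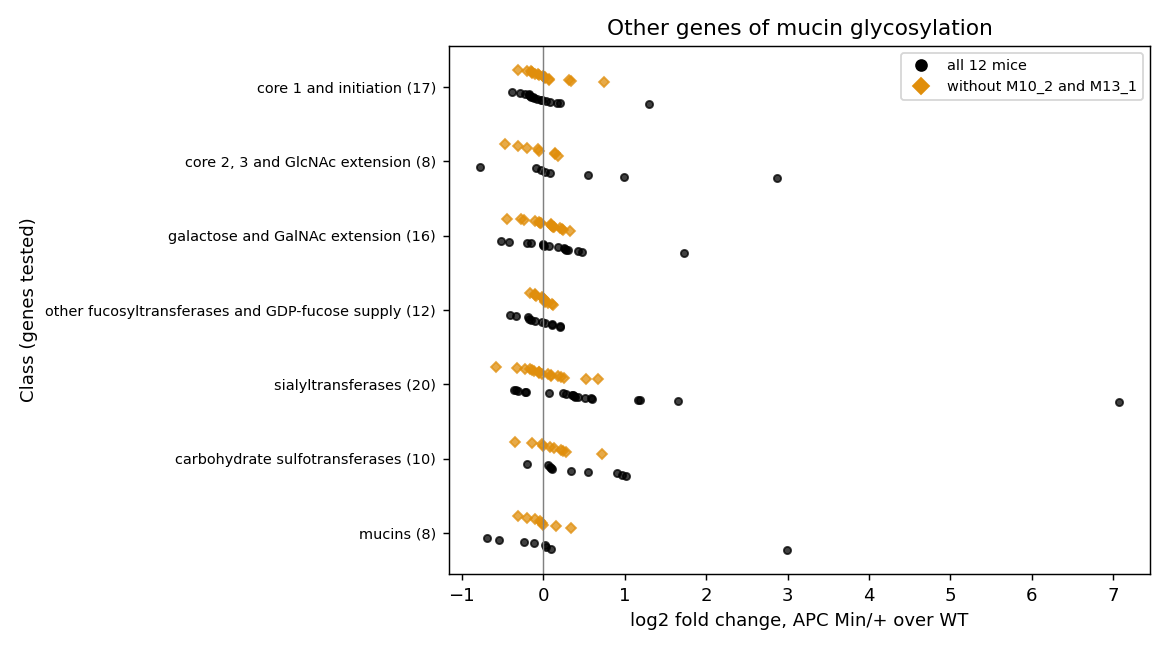
Log2 fold change of APC Min/+ over WT for the 91 other mucin glycosylation genes tested, by class, from all 12 mice (black circles) and without M10_2 and M13_1 (orange diamonds). The genes at the far right in black are St8sia5 (7.06), Muc1 (2.99) and B3gnt5 (2.87), and the diamonds of Muc1 and B3gnt5 lie at 0.00095 and 0.14. St8sia5 was not among the genes tested without the 2 mice.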

How the data were processed

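Paired-end RNA-Seq had been performed on proximal colon from 12 mice. Per the labels and the methods of the study, the authors aligned reads to GRCm38.p2 with STAR 2.3.0, assigned them to genes by featureCounts, and deposited unnormalized counts per gene, with the exon length of each gene, for each mouse. Strand and read-pair settings are not given in the sources used here. Between 71.3 and 77.1% of counts from 1 to 200 were even, so a low count may stand for fewer fragments than its value.

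Ensembl identifiers were matched to GENCODE M21 symbols (37607 of 38924). Genes reaching 10 counts in 3 or more mice were kept (20311), scaled by TMM (factors 0.906 to 1.10), and tested with edgeR 4.0.16 (quasi-likelihood, genotype as the only term, Benjamini-Hochberg FDR), with DESeq2 1.42.0 as an alternative in R 4.3.3. All 10 genes passed the filter, also without M10_2 and M13_1. RPKM used the deposited lengths. Permutation tests used log2(CPM + 0.1), with 100000 resamples for relations over 10 mice. Scripts were tested on simulated data. CPM floors cover counting error only. Mice are separate animals, and no 2 of the 12 libraries agreed within sampling noise (chi-square per degree of freedom at least 22.4 over all pairs).

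The 10 genes, the list of 102 pathway genes and the markers were chosen with earlier results of these data known. Named from the pathway list were, in each class, the 2 genes of lowest p and the 2 of highest RPKM. Marker genes were named in list order, apart from Krt20, Cdx2, Ceacam20, Ckm, Myh2, Igha and Jchain, which stand beyond the first 2 of a list. These, like St8sia2, St6galnac1, Fut11 and B4galnt4, were chosen after their values were seen. The exact test, likelihood ratio test and DESeq2 without M10_2 and M13_1 were likewise added after seeing the data. No columns of the authors' own comparisons were used.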

Additional observations from a re-analysis of the deposited data

How the results depend on the processing

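Precision was limited by 6 mice per genotype and, for Fut1 and Fut9, by low counts. Over 24 alternatives for each of the 10 genes, 228 of 240 log2 fold changes kept their direction and side of the threshold, 8 turned and 4 passed the threshold. The 8 that turned were all without M10_2 and M13_1, for Fut8 (-0.19 in edgeR's quasi-likelihood, exact and likelihood ratio tests, -0.18 in DESeq2) and Fut9 (-0.061 in those tests, -0.048 in DESeq2). The number of genes called was 0 in edgeR's quasi-likelihood test (1071 at an unadjusted p under 0.05), 12 in edgeR's exact test, 15 in its likelihood ratio test and 27 in DESeq2. Of the 10 genes, these called 0, 1 (Fut9), 1 (Fut9) and 2 (Fut9 and B3gnt7). Leaving out M10_2 moved the 1071 to 523, leaving out M13_1 to 601 and leaving out M2_A to 1828. The number with an exact permutation p under 0.05 went from 0 to 1 (Gcnt3, p = 0.0498) with library size in place of TMM, and lay between 0 and 3 with 1 mouse left out. The number outside the range of the other mice in M10_2 and M13_1 was 7, and also 7 with library size only. It stayed at 7 with any 1 of the other 10 mice left out. Leaving out such a mouse can only narrow the range, so that step could not have lowered the number. The number related to Hoxb13 went from 1 to 3 with library size only (Fut4, B3gnt3 and B4galnt2), to 0 without the 2 mice farthest from the median, and to 0 within the 6 WT mice. The causes were not tested. No paired analysis was possible because the mouse numbers in the labels do not pair mice across genotypes.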
